A study of Mus musculus with 6 samples.

Results

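The interferon-stimulated genes Rsad2, Irgm1, Ifit1, Ifit2, Ifit3, Isg15, Irf7, Irf9 and Bst2 were followed in the cortex of mice after stroke, with and without short-chain fatty acids (SCFA). They were taken by name, 9 genes of 24553 genes and unmatched rows in the count table, after the rows of RefSeq transcripts with the same symbol had been summed. The SCFA group held 3 libraries from mice given SCFA in drinking water, and the control group held 3 libraries from mice given salt-matched water. All animals were male C57BL/6J mice that also drank water containing the antibiotics metronidazole, neomycin, ampicillin and vancomycin, sweetened with 5% sucrose, in both groups alike. Drinking of SCFA or control salts began when the mice were 6 to 8 weeks old and lasted 4 weeks, and the profiled mice were 15 weeks old and 14 days past their stroke. The stroke model, the hemisphere and the distance from the lesion were not given in the sources used here, and each library was taken as 1 animal, as the design text counts mice.

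Type I interferons bind the receptor pair IFNAR1 and IFNAR2, and the kinases JAK1 and TYK2 then phosphorylate STAT proteins, which join IRF9 in the complex ISGF3. ISGF3 binds the interferon-stimulated response element (ISRE) in promoters and switches on genes whose products block viral replication. Type II interferon acts through its own receptor and a different element, the gamma-activated site (GAS). In the brain, microglia, astrocytes, endothelium and infiltrating leukocytes can all carry such a response. Among the 9 genes, Irf9 and Irf7 encode transcription factors of the pathway. Rsad2 encodes viperin, a radical SAM enzyme, and Ifit1, Ifit2 and Ifit3 encode tetratricopeptide repeat proteins that act on viral RNA. Isg15 encodes a ubiquitin-like protein that is joined to other proteins, Bst2 encodes tetherin, which holds budding virions at the cell surface, and Irgm1 encodes a GTPase of the immunity-related family.

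The promoter stretches that hold the ISRE-type letters are shown because this element is what the genes are known to share. RefSeq promoter windows (assembly GRCm38.p6, 250 bases before to 50 bases after each start) were available for 9 of 9 genes. The letters searched were GAAA, any 2 bases and GAAA again, on both strands, and overlapping matches were joined. They occurred in the windows of 6 of 9 genes (66.7%), of 38 of 92 other interferon pathway genes with a window (41.3%), and of 1079 of 27025 genes in all (3.99%). The GAS-type letters TTCNNNGAA occurred in 2 of 9 genes, Ifit2 and Bst2, and in 9.55% of all genes, and in Bst2 they overlapped the ISRE-type letters. A match is a run of letters and was not measured as a bound site. The sequences run 5′ to 3′ on the gene's strand, with matches on either strand in capitals.
Rsad2: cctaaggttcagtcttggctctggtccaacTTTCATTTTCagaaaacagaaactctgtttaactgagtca
Irgm1: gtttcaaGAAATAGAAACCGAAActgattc
Ifit1: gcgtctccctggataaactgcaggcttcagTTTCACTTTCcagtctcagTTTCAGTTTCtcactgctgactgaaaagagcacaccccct
Ifit3: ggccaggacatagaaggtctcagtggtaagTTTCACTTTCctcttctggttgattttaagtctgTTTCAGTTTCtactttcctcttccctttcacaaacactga
Isg15: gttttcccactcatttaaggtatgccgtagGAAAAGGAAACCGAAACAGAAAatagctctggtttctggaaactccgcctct
Bst2: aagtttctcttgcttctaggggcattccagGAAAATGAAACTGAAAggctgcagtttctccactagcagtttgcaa

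In that order the stretches lie at chr12:26456533-26456602 (minus strand), chr11:48871428-48871457 (minus), chr19:34640755-34640843 (plus), chr19:34583343-34583446 (plus), chr4:156200845-156200926 (minus) and chr8:71537557-71537632 (minus). The stretches of Rsad2, Isg15 and Bst2 touched no RefSeq gene span and no GENCODE M21 exon. The stretch of Irgm1 lies before the RefSeq start but touches a GENCODE exon of Irgm1. The stretch of Ifit1 lies within the RefSeq span of the neighbouring gene Ifit1bl1 and overlaps the end of that of Ifit1bl2, and that of Ifit3 lies within the longer RefSeq span of Ifit3 itself, and neither touches a GENCODE exon. The last base of a match lay between positions -147 (the farther match of Ifit3) and -15 (Irgm1) from the start.

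**Figure D1:**
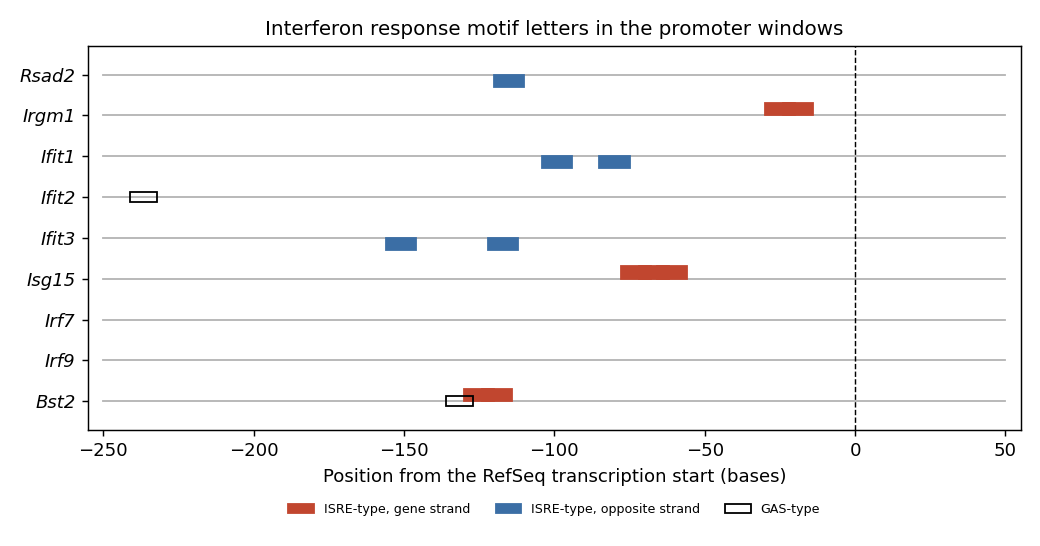
Positions of ISRE-type and GAS-type letters in the promoter window of each of the 9 genes, in bases from the RefSeq start. Red boxes above the line are ISRE-type matches on the gene's strand, blue boxes below it are those on the opposite strand, and open boxes are GAS-type matches. Isg15 has 3 overlapping matches, Irgm1 and Bst2 have 2 overlapping matches each, Ifit1 and Ifit3 have 2 separate matches each, Rsad2 has 1, and Irf7, Irf9 and Ifit2 have no ISRE-type match in the window.

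Total counts ran from 9275252 to 13862756 in the SCFA libraries and from 10393480 to 11397967 in the controls. A single row with no gene match took 35% to 46.3% of the counts with SCFA and 37.7% to 55.3% in controls. Control 2 stood apart, with counts in 13600 rows against 15988 to 16941 in the other libraries, and SCFA 2 had the highest summed level of 7 striatal neuron markers, at 387.7 CPM (counts scaled to the same library total) against 67.4 and 75.7 in the other SCFA libraries and 66.8 to 127 in controls. The markers of cortical neurons fitted the tissue label, with a summed level of 3202 to 3497 CPM over 9 genes with SCFA and 2830 to 3286 CPM in controls. The summed level of 11 exocrine pancreas genes was 0.413 to 1.26 CPM with SCFA and 33.6 to 353.2 CPM in controls. Of its 9 tested genes 0 were above 0 in log2 fold change (50.9% of all genes tested), and the part of such RNA in the values below was not tested. CPM values use library sizes scaled by TMM, a method that matches libraries on the bulk of their genes, and 3 counts stood for 0.207 to 0.314 CPM with SCFA and 0.243 to 0.346 CPM in controls.

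Of the 9 genes, 7 had enough counts to be tested and none of them passed the test across all 11969 genes tested (quasi-likelihood test of edgeR with p adjusted by Benjamini-Hochberg, at 0.05). Over all genes tested, 0.0835% passed, 0.00835% as higher and 0.0752% as lower. Of the 7, 6 lay higher with SCFA on average and Isg15 lay lower, with a median log2 fold change of 0.43 against 0.01 over all genes tested. Rsad2 and Irgm1 were higher in every SCFA library than in every control library, a pattern seen in 6.42% of all genes tested. The same 2 genes had an unadjusted p under 0.05 in this direction, as 2.97% of all genes did, and none of the 7 had one in the other, as 2.79% did (5.76% in either direction). In bulk tissue a change in the number of cells of a type and a change in RNA per cell cannot be told apart. The median moved with single libraries, to 0.28 without control 1 and 0.83 without control 3, and it was 0.25 without control 2 and SCFA 2 together.

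Rsad2 (chromosome 12, 26442743 to 26456452) had the log2 fold change farthest from 0 among the 7 tested genes. Its level was 5.65, 5.99 and 2.76 CPM in SCFA 1 to 3, against 1.135, 0 and 1.805 CPM in controls 1 to 3. The groups did not overlap, and SCFA 3 lay nearest to the controls. These values rest on 54, 87 and 37 counts with SCFA and 14, 0 and 18 counts in controls, and the count of 0 in control 2 allows a level of up to 0.346 CPM. The group means were 4.80 ± 1.78 CPM with SCFA and 0.98 ± 0.912 CPM in controls (SD, n = 3 each). The log2 fold change was 2.26 (SE 0.91, 95% interval 0.30 to 4.22, adjusted p = 0.864 by edgeR). Without control 2 the log2 fold change was 1.71, without control 3 it was 2.98, and without control 2 and SCFA 2 it was 1.51, with an adjusted p of 0.398 or more under every alternative run. Cmpk2, the nucleotide kinase gene beside it on chromosome 12 (26469117 to 26479837), had 134, 352 and 129 counts with SCFA and 110, 178 and 214 counts in controls, with a log2 fold change of -0.08 (SE 0.39). It was named for its position, after its values had been seen.

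Irgm1 (chromosome 11, 48865245 to 48871420) was the other gene whose groups did not overlap. It measured 17.9, 20.5 and 12.8 CPM in SCFA 1 to 3, against 9.81, 7.62 and 11.4 CPM in controls 1 to 3. SCFA 3 at 12.8 CPM and control 3 at 11.4 CPM were the closest libraries of the 2 groups. The means were 17.03 ± 3.92 CPM with SCFA and 9.62 ± 1.91 CPM in controls (SD, n = 3 each). The log2 fold change was 0.82 (SE 0.30, 95% interval 0.17 to 1.47, adjusted p = 0.864 by edgeR). Its counts were 171, 297 and 171 with SCFA and 121, 66 and 114 in controls. Without control 2 and SCFA 2 together the log2 fold change was 0.53.

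**Figure D2:**
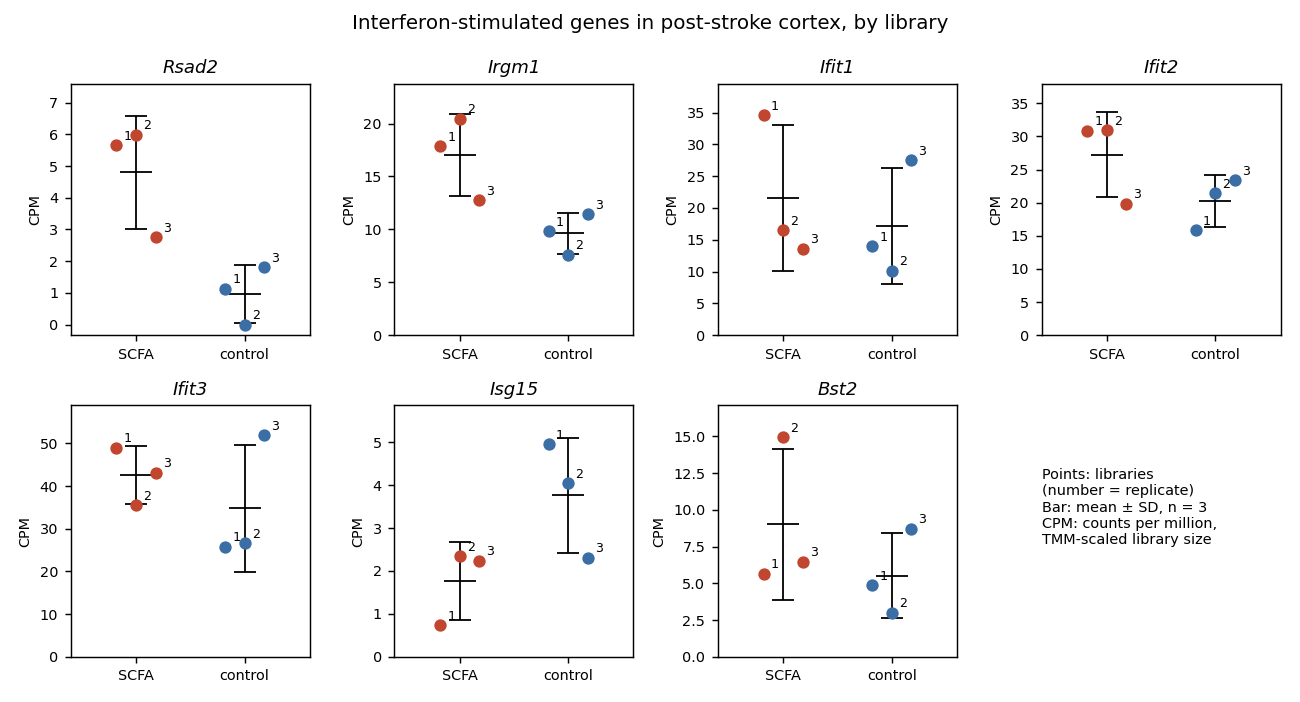
Level of each of the 7 tested genes in CPM (TMM-scaled library sizes), with SCFA libraries in red on the left and control libraries in blue on the right. Each point is a library with its replicate number, and the bar is the mean ± SD of 3 libraries. The groups do not overlap for Rsad2 (2.76 to 5.99 CPM with SCFA, 0 to 1.805 CPM in controls) and Irgm1 (12.8 to 20.5 CPM with SCFA, 7.62 to 11.4 CPM in controls), and they overlap in the other 5 panels.

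Ifit1, Ifit2 and Ifit3 lie within 1 cluster on chromosome 19, at 34640889 to 34650009, 34550550 to 34576534 and 34583119 to 34588982, and the groups overlapped for all of them. Ifit1, whose product binds viral RNA by its 5′ end, measured 34.6, 16.5 and 13.6 CPM in SCFA 1 to 3, against 13.9, 10.2 and 27.5 CPM in controls 1 to 3. SCFA 1 and control 3 were the high libraries. Its log2 fold change of 0.32 (SE 0.40, 95% interval -0.55 to 1.18) became -0.19 without SCFA 1. Ifit2 measured 30.87, 30.99 and 19.83 CPM with SCFA, against 15.8, 21.5 and 23.4 CPM in controls. SCFA 1 and SCFA 2 lay above every control and SCFA 3 among the controls, with a log2 fold change of 0.43 (SE 0.26, 95% interval -0.12 to 0.98).

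Ifit3, which encodes a partner of IFIT1 in RNA binding, measured 49.0, 35.5 and 43.1 CPM with SCFA, against 25.8, 26.6 and 51.9 CPM in controls. Control 3 held the highest value and the other controls the lowest, and the log2 fold change was 0.29 (SE 0.27, 95% interval -0.29 to 0.87). Without control 3 it was 0.70. The intervals of Ifit1, Ifit2 and Ifit3 reach both sides of 0, so at 3 libraries a group neither a rise nor an equal level is shown for them (edgeR, adjusted p = 0.953, 0.889 and 0.919). Reads of Ifit3 cannot be assigned with certainty, because its coding sequence and that of the neighbouring Ifit3b are identical at 1201 of 1212 bases (99.1%), while Ifit1, Ifit2 and Ifit3 share 62.6% to 67.0% of aligned coding bases with each other. Ifit3 and Ifit3b together measured 77.5, 60.4 and 67.5 CPM with SCFA, against 48.2, 40.6 and 78.7 CPM in controls, and Ifit3 held 58.8% to 63.8% of their summed counts with SCFA and 53.5% to 66.0% in controls. The summed level gave the same order of control 3 above the other controls.

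Isg15 (chromosome 4, 156199424 to 156200818) was the only one of the 7 whose mean was lower with SCFA. Its level was 0.732, 2.34 and 2.24 CPM in SCFA 1 to 3, against 4.95, 4.04 and 2.31 CPM in controls 1 to 3. SCFA 2 at 2.34 CPM lay just above control 3 at 2.31 CPM, so the groups overlapped. The counts were low, at 7, 34 and 30 with SCFA and 61, 35 and 23 in controls. The means were 1.77 ± 0.90 CPM with SCFA and 3.76 ± 1.34 CPM in controls (SD, n = 3 each). The log2 fold change was -1.07 (SE 0.69, 95% interval -2.57 to 0.42, adjusted p = 0.896 by edgeR). The value stayed below 0 under all 18 alternatives, from -1.32 without control 3 to -0.71 without SCFA 1, and did not pass under any of them. Of the enzymes that attach ISG15, the activating enzyme gene Uba7 had a log2 fold change of 1.404 (SE 1.03). Uba7 had 26, 25 and 45 counts with SCFA and 23, 0 and 10 in controls, and its value was 0.84 without control 2. The ligase gene Herc6 had a log2 fold change of -0.17 (SE 0.19). Usp18, which encodes the protease that removes ISG15, measured 3.66, 1.38 and 1.27 CPM with SCFA, against 3.00, 0 and 3.21 CPM in controls. Its log2 fold change of 0.000458 leaves its direction undetermined. At a value this small the SE, a ratio of numbers near 0, is unstable, at 1.37 here and 0.76 with DESeq2 size factors.

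Bst2 (chromosome 8, 71534255 to 71537472) measured 5.65, 14.9 and 6.49 CPM in SCFA 1 to 3, against 4.86, 3.00 and 8.72 CPM in controls 1 to 3. SCFA 2 was far above the other 5 libraries, and control 3 lay above SCFA 1 and SCFA 3. The log2 fold change of 0.71 (SE 0.50, 95% interval -0.36 to 1.78, adjusted p = 0.902 by edgeR) was 0.14 without SCFA 2 and -0.16 without SCFA 2 and control 2 together.

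Irf7 and Irf9, the transcription factor genes of the group, could not be compared. Irf7 (chromosome 7, 141263183 to 141266499), which amplifies interferon transcription, had 0 counts in each of its 3 transcript rows in all 6 libraries. Irf9 (chromosome 14, 55603985 to 55610030), the DNA-binding part of ISGF3, had 0, 2 and 4 counts in SCFA 1 to 3 and 0, 0 and 2 counts in controls 1 to 3, summed over 3 rows. These low counts cannot be read as low expression, since both genes have 3 transcript rows and the other 7 genes, which all have counts, have 1 row each. The same held in the pathway around them, where 56 of 81 genes with 1 row (69.1%) and 6 of 34 genes with 2 or more rows (17.6%) had enough counts to be tested. These shares were not computed over all genes. Some genes with 2 or more rows did have many counts, such as Gfap, with 2 rows and 14175 counts. How reads shared by several transcripts were treated was not given in the sources used here. In GENCODE M21, exons of Irf7 also share 45 bases with Phrf1 on the opposite strand and exons of Irf9 share 123 bases with Rnf31 on the same strand.

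**Figure D3:**
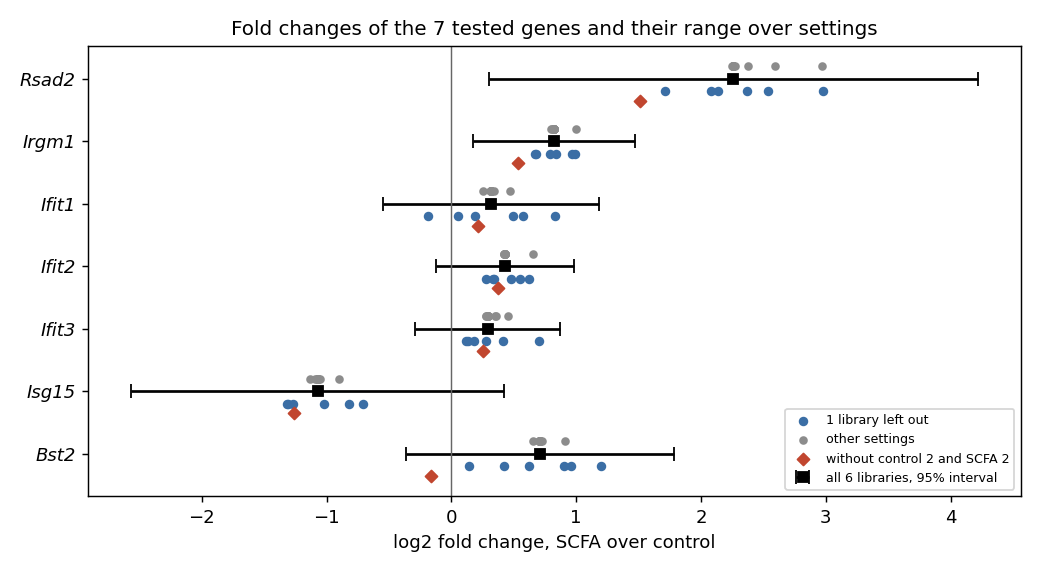
Log2 fold change (SCFA over control) of the 7 tested genes: black squares with 95% intervals use all 6 libraries, blue points leave out 1 library, red diamonds leave out control 2 and SCFA 2, and grey points are the other settings. Rsad2 and Irgm1 stay above 0 and Isg15 below 0 throughout, while Ifit1 reaches -0.19 and Bst2 reaches -0.16.

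The 7 genes moved together only in part. Rsad2 and Irgm1 ranked the 6 libraries in the same order, SCFA 2 highest, then SCFA 1 and SCFA 3, and then control 3, control 1 and control 2. Their log2 CPM values had a Pearson r of 0.93 (exact permutation p = 0.00139, adjusted p = 0.0292 over the 21 pairs of tested genes) and a Spearman rho of 1 (exact permutation p = 0.00278, adjusted p = 0.0583). Both unadjusted p are the lowest that 720 pairings of 6 libraries allow. For the best of 21 pairs alone, the adjusted Spearman p could therefore not fall under 0.05. With SCFA 2 and control 2, the libraries farthest from the Rsad2 median, left out, r was 0.99. Both genes separate the groups, so this r includes the group difference, and over deviations from each group's mean r was 0.82. No other pair passed after adjustment. Among the 15 pairs that do not include Isg15, r was above 0 in 15, with a median of 0.57. Of these pairs, 13 kept r above 0 without the 2 farthest libraries and 15 over deviations from group means. The share of pairs with r above 0 was not computed for other genes.

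Isg15 went against the rest across libraries. Its r was below 0 in all 6 of its pairs, from -0.28 with Bst2 to -0.81 with Ifit1 (exact permutation p = 0.0472, Spearman rho -0.54 with p = 0.297, adjusted p = 0.214 and 0.416 over the 21 pairs), and that pair had r = -0.49 without SCFA 1 and control 3. Over deviations from group means the pair with Bst2 had r = 0.09. SCFA 1 had the lowest Isg15 value and the highest Ifit1 value of the 6 libraries. Over all 21 pairs the mean r was 0.26, where the mean over all pairs of the 11969 genes tested was 0.00. Values above and below 0 cancel in such a mean, so 0.00 does not give the usual size of r between genes. In a principal component analysis of the libraries, the first component held 49.992% of the variance. Control 2 lay at 109.203 on it and the other libraries at -25.769 to -17.738. The part of this component in the r values was not tested. SCFA 2 was the highest library for 4 of the 7 genes and control 2 the lowest for 4 of the 7, the same libraries that stood apart by striatal markers and by detected rows.

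**Figure D4:**
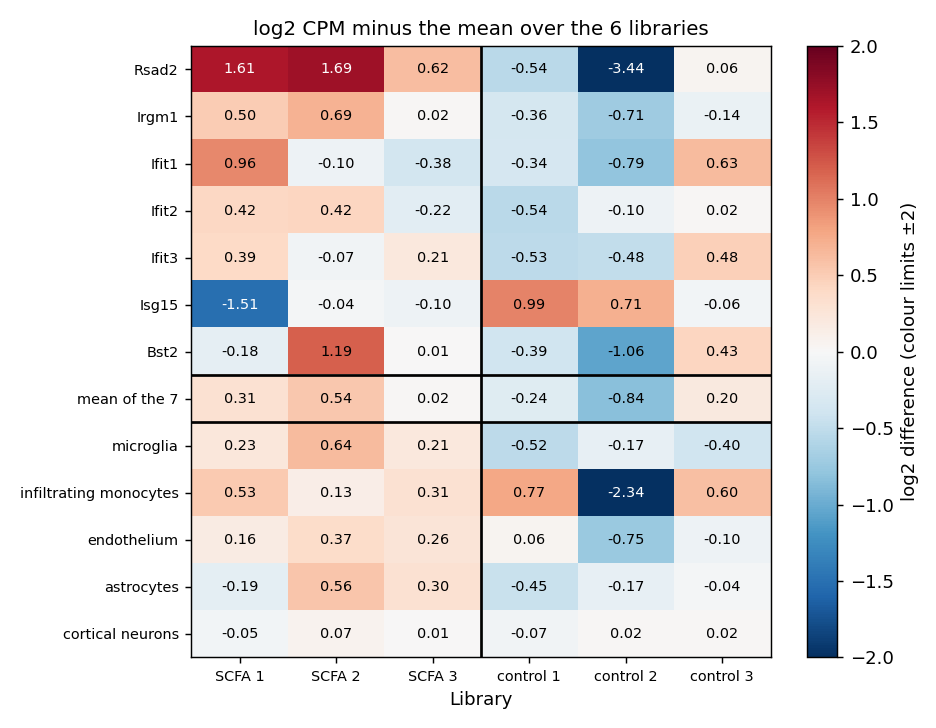
Log2 CPM of the 7 tested genes minus each gene's mean over the 6 libraries (top), their mean (middle), and the same mean for marker lists of 5 cell types (bottom). SCFA libraries are the 3 columns on the left and control libraries the 3 columns on the right. Colours end at ±2, and the printed values go beyond that for Rsad2 in control 2 (-3.44) and monocyte markers in control 2 (-2.34).

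Microglial markers were higher beside these genes. The summed level of 12 microglial genes was 640.3, 958.2 and 649.4 CPM in SCFA 1 to 3, against 371.8, 491.7 and 394.2 CPM in controls 1 to 3. Of its 11 tested genes 10 were above 0 in log2 fold change (50.9% of all genes tested), and 1 of the 12 was at 0 counts. All SCFA libraries lay above all controls in that sum, as they did for Rsad2 and Irgm1, and for 6.42% of all single genes tested. Among the defining markers, Cx3cr1 had 3574 counts and P2ry12 had 2281 counts over the 6 libraries. The part of microglial RNA in the interferon-stimulated genes was not tested. The control order differed, since control 2 had the highest microglial sum of the controls and the lowest value of Rsad2, Irgm1, Ifit1 and Bst2.

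Markers of other cell types that can carry interferon responses were summed in the same way. Those of infiltrating monocytes came to 8.05 to 8.69 CPM over 8 genes with SCFA and 1.73 to 11.3 CPM in controls, lowest in control 2, and 2 of the 8 were at 0. Lymphocyte markers summed to 1.86 to 12.6 CPM over 10 genes with SCFA and 0.802 to 10.5 CPM in controls, and the T cell gene Cd3e had 3 counts in all. Only 1 of these 10 genes had enough counts to be tested. The 5 markers of plasmacytoid dendritic cells summed to 4.60 to 6.19 CPM with SCFA and 7.62 to 17.5 CPM in controls, with Siglech, which microglia also express, at 0 counts in all libraries. Only 2 of these 5 were tested, and the second defining marker, Tcf4, had 428 counts over the libraries. The sum is therefore not read as a level of these cells. Endothelial markers summed to 133.9 to 154.4 CPM over 8 genes with SCFA and 103 to 110.1 CPM in controls, with Cldn5 at 547 counts over the libraries and Pecam1 at 0. Astrocyte markers summed to 1105 to 1585 CPM over 7 genes with SCFA and 792.2 to 944.5 CPM in controls, with Gfap at 14175 counts. Siglech and Pecam1 have 3 and 4 transcript rows, so their counts of 0 are not read as absence either. The endothelial and astrocyte sums did not overlap between the groups, with SCFA above, a pattern that 6.42% of all single genes tested had. The mean log2 deviation over the astrocyte genes, which weights them equally, did overlap, at -0.19, 0.56 and 0.30 in SCFA 1 to 3 and -0.45, -0.17 and -0.04 in controls 1 to 3. For both cell types their part in the interferon-stimulated genes was not tested.

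Upstream of these genes, the interferons themselves had too few counts to be tested. Of 18 interferon genes listed, 13 had 0 counts in all libraries and the other 5 had 1 to 10 counts in all, with Ifnb1 at 0 and Ifng at 1 count. Of 6 receptor genes, 5 were tested and none passed. Ifngr1, the ligand-binding chain of the type II receptor, measured 15.6, 23.4 and 19.5 CPM with SCFA, against 8.19, 13.1 and 9.22 CPM in controls. Its groups did not overlap, with SCFA above, as in 6.42% of all genes tested. Its log2 fold change was 0.95 (SE 0.29, adjusted p = 0.864 by edgeR). The other chains of the type I and type II receptors had 95% intervals that reach both sides of 0. Their log2 fold changes were 0.12 (SE 0.24) for Ifnar1, -0.23 (SE 0.59) for Ifnar2 and -0.06 (SE 0.19) for Ifngr2. The interval of Ifnar2 was wide, at -1.51 to 1.04.

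Signal carriers and sensors did not pass either. Jak1 measured 195.6 ± 9.001 CPM with SCFA and 205.3 ± 11.4 CPM in controls (SD, n = 3 each), and Stat2 had a log2 fold change of -0.36 (SE 0.29). Jak2 had 85 counts in all and a log2 fold change of 1.69 (SE 1.20), and Tyk2 and Irf3 had 2 and 7 counts in all and could not be compared. Each of these 3 genes has 2 or more transcript rows. Irf2, another interferon regulatory factor gene, had a log2 fold change of 0.11 (SE 0.21). Among 14 sensors and adaptors of nucleic acid signalling, 9 were tested, 8 of them above 0 (50.9% of all genes tested). The median log2 fold change of the 9 was 0.60, the value of Ticam1 (SE 0.94). Ticam1 measured 3.24, 3.51 and 7.16 CPM with SCFA, against 2.11, 0 and 7.02 CPM in controls. Tlr9 was also at 0 in control 2. Myd88, the adaptor of most Toll-like receptors, measured 7.12, 5.44 and 6.79 CPM with SCFA, against 3.81, 4.16 and 4.01 CPM in controls. Tbk1, the kinase that activates IRF3, was the exception below 0, at 35.7, 49.1 and 43.0 CPM with SCFA, against 55.5, 67.2 and 60.0 CPM in controls (log2 fold change -0.51, SE 0.18, adjusted p = 0.864 by edgeR). Every SCFA library lay below every control for Tbk1, as in 5.74% of all genes tested.

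**Figure D5:**
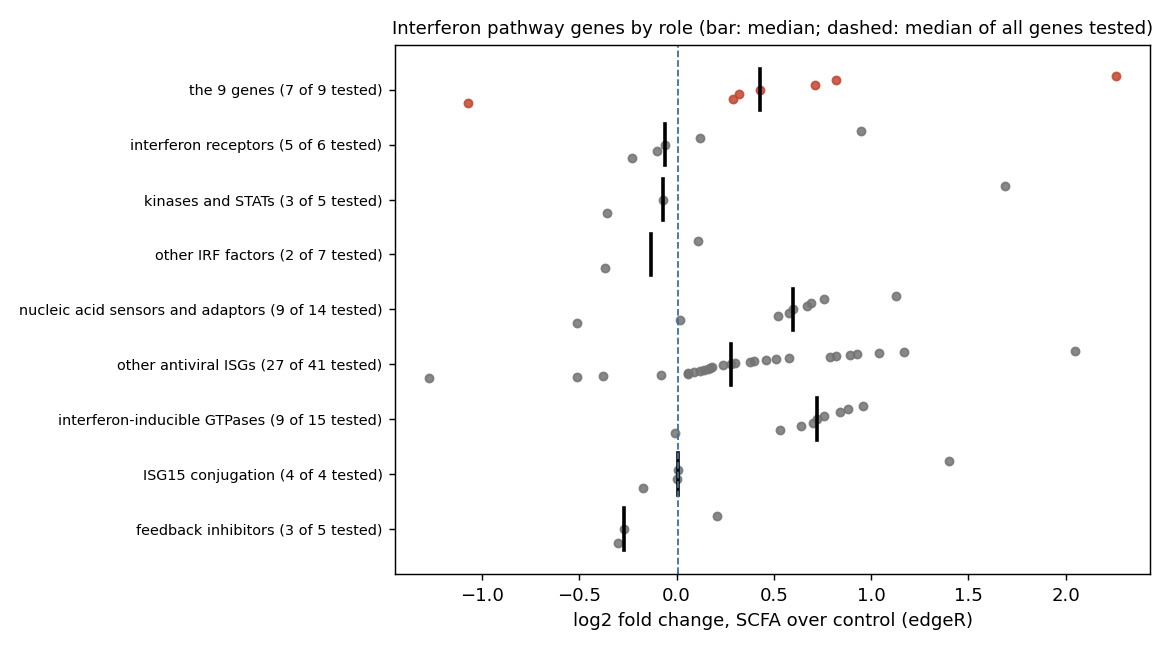
Log2 fold changes (SCFA over control) of the tested interferon pathway genes by role, 1 point a gene, with the 7 tested genes of the group in red at the top. Black bars are medians and the dashed line is the median of all genes tested (0.01). GTPases (median 0.72) and sensors (0.60) lie mostly above 0, while receptors (-0.06) and feedback inhibitors (-0.27) lie around or below it, and none of the points passed the test.

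Among other interferon-stimulated effectors, the interferon-inducible GTPase genes had the highest median of the lists. Of 15 listed, 9 were tested, 8 were above 0 (50.9% of all genes tested), 3 had every SCFA library above every control (6.42% of all genes tested) and none passed, with a median log2 fold change of 0.72. Gbp6, a guanylate-binding protein gene, measured 18.9, 18.9 and 18.6 CPM with SCFA, against 12.8, 12.5 and 13.7 CPM in controls (log2 fold change 0.53, SE 0.25, adjusted p = 0.864 by edgeR). Gbp5 measured 9.42, 7.30 and 7.08 CPM with SCFA, against 2.68, 4.27 and 6.02 CPM in controls (log2 fold change 0.88, SE 0.44). Both genes kept the groups apart, Gbp6 with the narrower spread. Among the 9 tested GTPase genes, control 2 was the lowest library for Gbp2, Gbp6, Gbp9, Gbp10, Tgtp1 and Tgtp2. It was not the lowest for Gbp5, Igtp and Irgm2. The part of that library in the median was not tested. Of 41 other antiviral genes, 27 were tested, 23 were above 0, 4 had every SCFA library above every control (6.42% of all genes tested) and none passed, with a median of 0.28. Lgals3bp, a secreted glycoprotein gene, measured 27.1, 51.5 and 16.03 CPM with SCFA, against 10.6, 13.3 and 18.2 CPM in controls, and its log2 fold change of 1.17 (SE 0.37) passed only in the unfiltered edgeR test and was 0.62 without SCFA 2. Slfn5, a Schlafen family gene, measured 18, 17.98 and 13.27 CPM with SCFA, against 7.78, 7.27 and 11.4 CPM in controls (log2 fold change 0.89, SE 0.31, adjusted p = 0.864 by edgeR).

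Over all 62 tested genes of the 115 in these lists, 47 had a log2 fold change above 0, which 50.9% of all genes tested had, and 0 passed in either direction (edgeR). At an unadjusted p under 0.05 there were 5 higher and 1 lower of the 62, where 2.97% and 2.79% of all genes tested were. Every SCFA library lay above every control for 10 of the 62, where 6.42% of all genes tested had this pattern. The median log2 fold change was 0.29 against 0.01 over all genes tested. The counts and medians of the pathway lists were not recomputed with libraries left out. Feedback inhibitors were few, with Pias1 at -0.27 (SE 0.17) and Socs3 at 0.21 (SE 0.66) on the log2 scale.

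The genes whose levels followed the mean of the 7 genes most closely were taken from 10047 other genes whose mean log2 CPM was 1 or more. They were Gca (Pearson r = 0.994 over the 6 libraries), Nol6 (0.991), Mast4 (0.991), Rtn4rl2 (0.989) and Gatm (0.987), given as a description, since the highest of so many values is high by selection. For all 5 the groups overlapped and control 2 was the lowest library, as it was for the mean of the 7 genes, which stood at 0.31, 0.54 and 0.02 in SCFA 1 to 3 and at -0.24, -0.84 and 0.20 in controls 1 to 3 on the log2 scale. Gatm, which encodes an enzyme of creatine synthesis, measured 54.0, 59.4 and 50.4 CPM with SCFA, against 45.5, 32.6 and 51.7 CPM in controls.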

How the data were processed

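RNA-seq counts of 6 cortex libraries were analysed, with 1 table of 34755 rows. The deposited values are raw counts per RefSeq transcript, made by the authors with CASAVA 1.8.2 and featureCounts on mm10, per the submitters' processing notes. Aligner, strandedness and the handling of shared reads were not given in the sources used here. Libraries were made from total RNA with a kit for human FFPE samples, per the labels' protocols. Of the rows, 34424 (99.05%) were matched to symbols through a RefSeq table of GRCm38.p6, the mm10 assembly, and summed per symbol.

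Genes passing filterByExpr (minimum count 10, total 15) entered the two-sided quasi-likelihood test of edgeR 4.0.16 (R 4.3.3), scaled by TMM and without covariates. The p values were adjusted by Benjamini-Hochberg over 11969 genes at 0.05. The procedure was tested on simulated data that gave all genes the same dispersion and set no library apart. That simulation does not cover a library such as control 2. The standard error is the log2 fold change divided by the square root of F. Log2 CPM used a prior count of 2. Pairs of genes were compared by exact permutation over 720 pairings. Intervals and floors of 3 counts per library cover counting error only, except the 95% intervals of fold changes, which cover the spread between libraries. Alternatives were DESeq2 size factors, upper-quartile and total-count scaling, no filter, limma-voom (limma 3.58.1), DESeq2 1.42.0, a filter of CPM above 1 in at least 3 libraries, the replicate number as a block, robust dispersion, structural RNA removed, transcript rows, each library left out, and control 2 and SCFA 2 left out. The genes, lists and alternatives were chosen with earlier results of these data known. Named are the 9 genes, the 2 tested genes with the smallest p per pathway list, 12 pathway genes whatever their value and the 5 genes most like the group's mean, apart from 2 pathway genes that are not reported here. A few other genes of the lists are also named, after their values had been seen. Lists were described by counts and medians with no set test.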

Additional observations from a re-analysis of the deposited data

How the results depend on the processing

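None of the 7 tested genes passed under any of the 18 alternatives, and 7 genes were tested under all of them but the unfiltered test, which included Irf9 as an eighth. Directions turned for Ifit1 without SCFA 1 (-0.19) and Bst2 without control 2 and SCFA 2 (-0.16), and the cause was not tested. Without that pair of libraries Ifnar1 was -0.14, Ifnar2 0.36 and Usp18 -0.35. With total counts, which moved the median of all genes to 0.18, Ifnar2 was 0.03, Ifngr2 0.09 and Jak1 0.12, and limma-voom gave Ifnar2 0.01. Leaving out 1 library gave Ifit1 -0.19 to 0.83, Bst2 0.14 to 1.20, Ifnar1 -0.11 to 0.28, Ifnar2 -0.57 to 0.27, Ifngr2 -0.12 to 0.04, Irf2 -0.11 to 0.22, Socs3 -0.13 to 1.20 and Usp18 -0.65 to 0.45. Usp18, at 0.000458 in the main test, was -0.000274 with DESeq2 size factors, -0.01 with upper-quartile scaling, -0.00239 with no filter, -0.000193 with structural RNA removed and -0.000983 with unsummed transcript rows. Over all genes, 1 was higher and 9 lower. Without a filter these were 30 and 25. DESeq2 made 14 and 17 such calls, and limma-voom made 0 and 0 (805 genes at an unadjusted p under 0.05). When single libraries were dropped, 0 to 8 genes were higher and 0 to 13 lower, and dropping control 2 and SCFA 2 gave 14 higher. With the replicate block 10 were higher and 12 lower, and none of the 7 tested genes of the group passed. Libraries with the same number showed no shared deviation (r = -0.00206, 0.0101 and -0.00525). The median Pearson r over the 21 pairs was 0.53, and 0.71 with total counts. This median was not recomputed with libraries left out, which would leave under 6. Among the tested genes, Isg15 and Rsad2 had the lowest counts, and Irf7 and Irf9 had too few to compare.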
